A study of Mus musculus with 15 samples.

Results

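The hearts of male mice given methamphetamine (meth) for 5 months were compared with those of males given phosphate-buffered saline (PBS), over every transcript on the array. These were the 8 male hearts of a series of 15, chosen by the sex and treatment in their labels, with 4 meth hearts and 4 PBS hearts. Each group held 2 mice of each of 2 separate trials. All mice were C57BL/6, an inbred laboratory strain, and were young adults at the start. Meth hydrochloride in sterile PBS was injected into the abdomen once a week, in doses that rose to 40 mg/kg by week 20, and the PBS mice were injected on the same schedule. The other 7 arrays were of female hearts, 4 after meth and 3 after PBS, and entered the comparison only through the shared estimate of the spread and where the sexes are set side by side. The question was which transcripts of the male heart differ after meth, with most weight on transcripts that the PBS hearts clearly contained and on those that were lower after meth.

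Meth is a stimulant that releases catecholamines such as noradrenaline, and long use is known to damage heart muscle. The heart is mostly made of cardiac muscle cells, which run on fatty acid oxidation and oxidative phosphorylation, with endothelial cells, fibroblasts and smooth muscle around them. Heart cells also hold a circadian clock. In it, the activators Arntl (also called Bmal1) and Clock switch on the Per, Cry and Rev-erb (Nr1d1 and Nr1d2) genes through E-box sequences. Rev-erb proteins and their competitors, the ROR proteins, act back on Arntl through ROR elements, so that Arntl and the Per genes peak at opposite times of day. RNA came from homogenized heart tissue, so fewer cells of a type and less RNA per cell cannot be told apart in any value below. The study's methods do not say which part of the heart was taken for RNA.

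On Agilent 1-colour arrays the brightness of a Cy3 dye shows how much labelled RNA a probe has bound. Values are given as the normalized log2 signal, which is the log2 brightness of a probe minus the 75th percentile of its array, so that 1 unit is a doubling and 0 is a fairly bright probe. On the male arrays the 75th percentile was 311 to 403 intensity units, no spot was saturated, and 61.3% to 64.7% of probes were well above background by the scanner software's own test. The 7 heart muscle markers were well above background on all 8 male arrays and none passed the threshold, for example with a log2 fold change of -0.11 (SE 0.13, the standard error of the fit) for the ventricular myosin light chain Myl2. The 4 Y-linked markers tested were well above background on all male arrays and Xist on none, as the labels say. Markers of airway secretory cells were not at the same level in the groups. Their summed signal, in units of the array's 75th percentile, was 12.4 to 16.8 in PBS hearts and 59.6 to 286.0 in meth hearts, and 14 of the markers, Bpifa1, Muc5b and Ltf among them, were well above background on no PBS array. Of 21 such genes tested, 16 rose past the threshold, and the part these cells play in any other result was not tested. The trial 1 males lay on 2 slides with 1 meth and 1 PBS male on each, and the 4 trial 2 males lay together on another slide. The hour of day at which each heart was taken is not given in the sources used here.

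In the comparison of meth with PBS, 314 of 28358 probes passed an adjusted p of 0.05 (1.11%), by limma with Benjamini-Hochberg adjustment. Of these, 87 were lower after meth (0.307% of the probes tested) and 227 were higher (0.8%). Of the 227 higher probes, 82 were well above background on no PBS array and 29 on only 1 to 3. Of the 87 lower probes, 83 were well above background on all 4 PBS arrays. Among the 24361 probes that were, 83 fell (0.341%) and 116 rose (0.476%). In 73 of the 87 lower probes every meth heart was below every PBS heart. Of all probes 5.17% separated so downward and 4.68% upward, and of those well above background in all PBS hearts 5.9% did downward. The log2 fold changes of the 87 ran from -2.63 to -0.29 with a median of -0.55, and 11 were below -1, that is, lower by more than a factor of 2. The counts depended on each array. With the slide in place of the trial in the fit, 525 probes passed, 213 lower and 312 higher. Leaving out trial 1 meth mouse 1 left 235 probes, 61 of them lower. Without trial 1 meth mouse 2 it was 135 with 28 lower, without trial 1 PBS mouse 1 it was 139 with 22 lower, and without trial 1 PBS mouse 2 it was 119 with 21 lower. In trial 2 it was 178 with 26 lower without meth mouse 1 and 185 with 46 lower without meth mouse 2. Without PBS mouse 1 of trial 2 it was 133 with 20 lower, and without PBS mouse 2 it was 140 with 22 lower.

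By gene, each taken at its brightest probe, 42 of 14220 genes fell (0.295%) and 148 rose (1.04%). Of the 12765 genes well above background on all 4 PBS arrays, 41 fell (0.321%) and 82 rose (0.642%). Of those 41, 37 had all 4 meth hearts below all 4 PBS hearts, a separation that 5.76% of all genes tested showed in that direction. The 20 genes with the most negative fold changes among the 37 are described by the known role of each, with other lowered genes of a like role. This ordering was made after the values were seen, and no grouping in it was tested. Of these 20, Arntl, Spon2, Rasl11a, Foxs1, Dtx4 and Map2k3os passed whichever of the 8 arrays was left out. The other 14 missed the threshold without at least 3 of the arrays, and between 8 and 13 of the 20 were lost with any single array left out. The normexp background correction tried as an alternative adds an offset of 50 intensity units before the log2. Such an offset by itself makes the fold changes of dim probes smaller. With normexp background correction 12 of the 35 named genes, lowered and raised, still passed. Several fold changes were then much smaller, among them those of Rasl11a (-0.33, against -0.98), Has2 (-0.24, against -0.51), Alkal2 (-0.45, against -1.11) and BC048679 (-0.50, against -1.25), and none of these 4 passed. No fold change of the 20 changed sign in any setting tried.

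**Figure D1:**
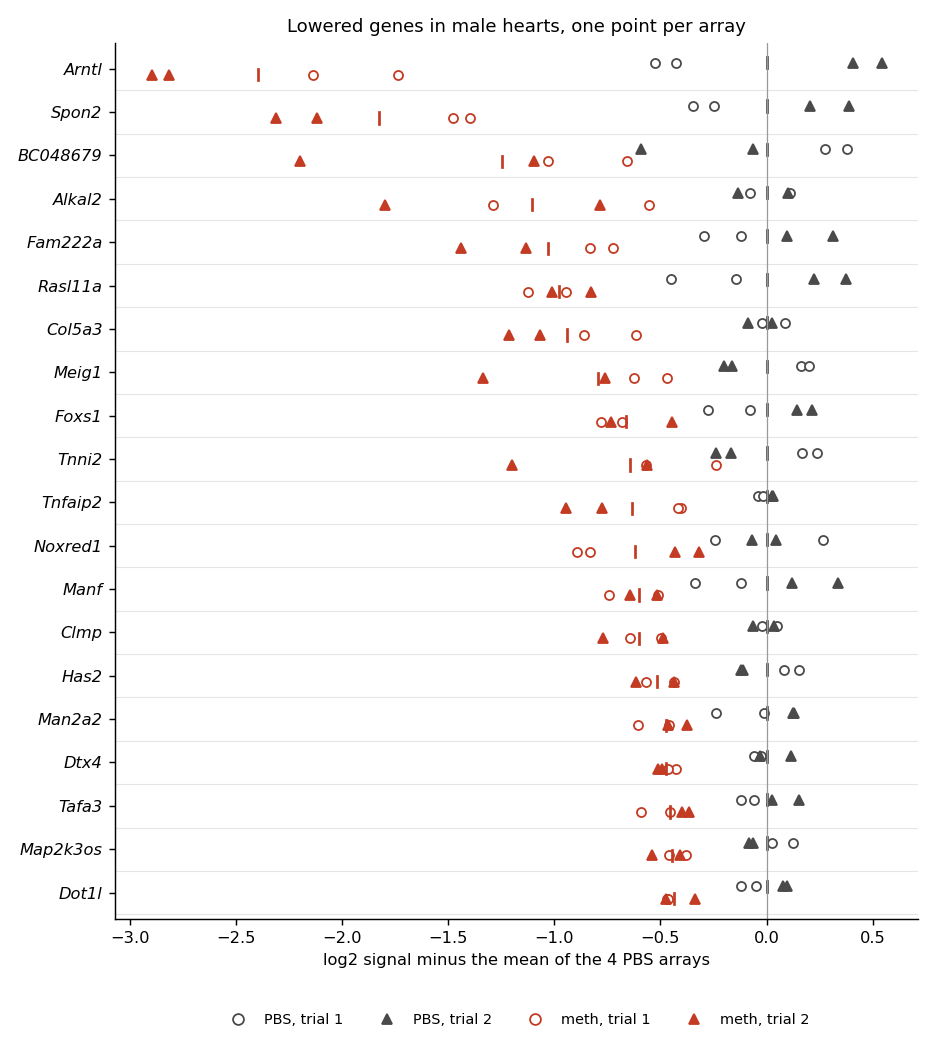
The 20 named lowered genes on the 8 male arrays. The x axis is the normalized log2 signal minus the mean of the 4 PBS arrays, each point is 1 heart, open circles are trial 1, filled triangles trial 2, and short bars are group means. Meth points lie left of PBS points for every gene, by 2.40 on average for Arntl and by 0.44 for Dot1l.

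Among genes with a symbol the largest fall was in Arntl (probe A_52_P267651), the clock activator. Its normalized log2 signal was 0.15 and 0.25 in the trial 1 PBS hearts, 1.08 and 1.22 in the trial 2 PBS hearts, -1.06 and -1.46 in the trial 1 meth hearts and -2.14 and -2.22 in the trial 2 meth hearts. The trials stood apart in both groups, and the lowest PBS heart was still above the highest meth heart. The log2 fold change was -2.40 (SE 0.34, limma adjusted p = 0.00521), which is 5.27-fold lower. Of 5 genes tested that peak with Arntl, itself included, 4 were below 0 and Arntl alone passed on its brightest probe. Clock, its partner, had a log2 fold change of -0.50 (SE 0.11, adjusted p = 0.0605). Nfil3, a repressor of D-box genes, fell by 0.74 on its dimmer probe (adjusted p = 0.0262), while its brighter probe gave -0.81 with an adjusted p of 0.157. All 4 meth hearts were below all PBS hearts for Clock and the brighter Nfil3 probe. Cry1, a repressor that peaks late, did not separate, with a log2 fold change of 0.23 (SE 0.16).

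The genes that peak opposite to Arntl were all on the other side. All 15 tested had a log2 fold change above 0 (44.9% of all genes did), with a median of 0.68 where the median over all genes tested was -0.02, and 9 passed. The period gene Per2 was at -2.88 and -2.53 in trial 1 PBS hearts, -3.11 and -3.34 in trial 2 PBS hearts, -1.46 and -1.37 in trial 1 meth hearts and -0.53 and -0.63 in trial 2 meth hearts. It rose by a log2 fold change of 1.97 (SE 0.24, adjusted p = 0.00187), on its brighter probe alone, the dimmer giving 0.28 (adjusted p = 0.639). Dbp, an activator of D-box genes, was among the brighter of these. It went from 5.46 and 5.34 in trial 1 and 3.61 and 3.57 in trial 2 after PBS to between 5.91 and 6.16 in all 4 meth hearts, a log2 fold change of 1.57 (SE 0.25, adjusted p = 0.0105). The meth hearts of both trials sat together while the PBS hearts of trial 2 were lower than those of trial 1. Per3 (1.45), Per1 (1.08), Tef (0.87), Hlf (0.87), Cry2 (0.53) and the glucocorticoid-responsive Tsc22d3 (0.53) also rose, as did Ciart, which was well above background on 2 of 4 PBS arrays and all meth arrays. Nr1d1 (0.42, adjusted p = 0.363), Nr1d2 (0.63, adjusted p = 0.106) and the deubiquitinase Usp2 (0.56, adjusted p = 0.261) did not pass.

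**Figure D2:**
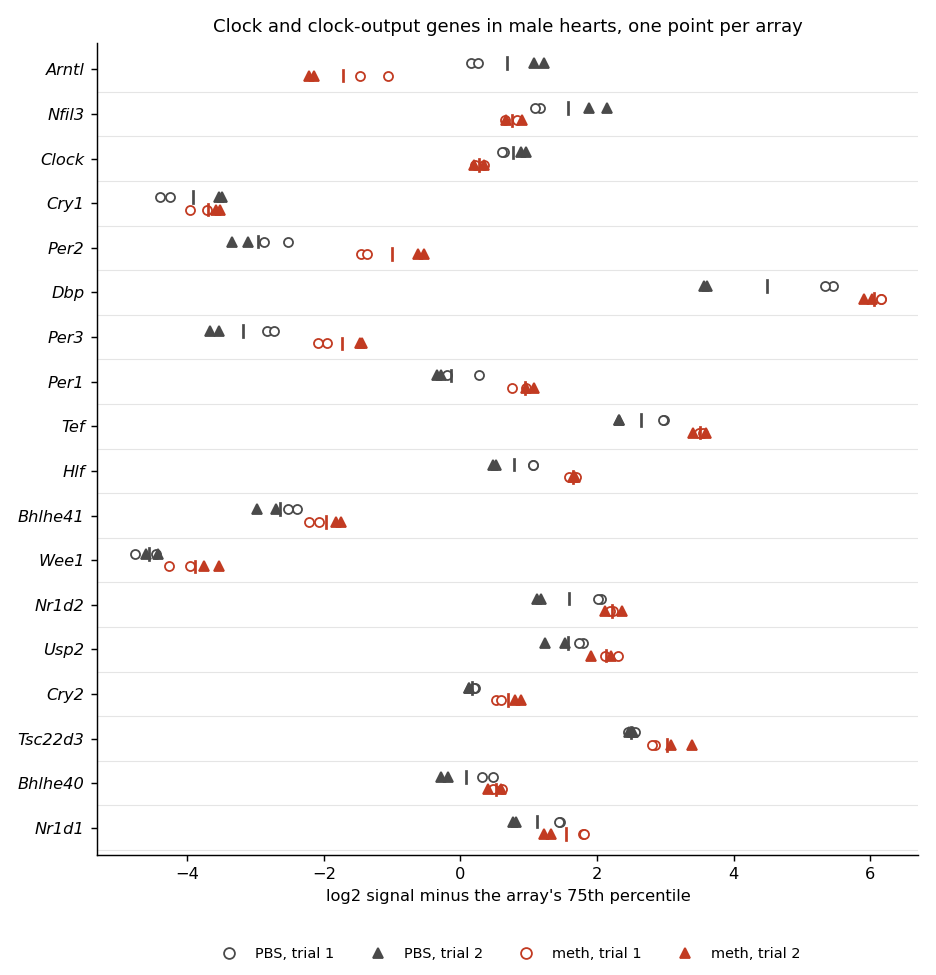
Selected clock and clock-output genes well above background on all 4 male PBS arrays. The x axis is the normalized log2 signal, each point is 1 heart, open circles are trial 1, filled triangles trial 2 and short bars group means. From Arntl down to Cry1 are genes that peak with Arntl and below them genes that peak opposite, and for Dbp the meth hearts lie at 5.91 to 6.16 while the PBS hearts of the trials lie apart.

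The promoters of 5 of these genes are shown for the clock sequences that they carry. They are RefSeq windows of GRCm38 read 5′ to 3′ on the gene's strand. Each window of 300 bases runs from 250 before to 50 after an annotated start. Capitals mark the E-box CACGTG, the ROR half-site AGGTCA or the D-box TTATGTAA, searched on both strands. For Arntl the 30 bases around the site are shown, which begins 31 bases after an annotated start, and for the others the 250 bases before the start.
Arntl, ROR half-site, chr7:113207531-113207560, plus strand: aggcagaaagtAGGTCAgggacggaggtgc
Nfil3, ROR half-site on the other strand, chr13:52981040-52981289, minus strand: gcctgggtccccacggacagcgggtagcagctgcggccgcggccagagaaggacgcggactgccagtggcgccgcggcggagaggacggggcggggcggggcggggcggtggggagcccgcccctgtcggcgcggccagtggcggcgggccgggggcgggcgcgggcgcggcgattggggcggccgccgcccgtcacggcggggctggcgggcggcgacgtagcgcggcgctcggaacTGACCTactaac
Per1, E-box, chr11:69098699-69098948, plus strand: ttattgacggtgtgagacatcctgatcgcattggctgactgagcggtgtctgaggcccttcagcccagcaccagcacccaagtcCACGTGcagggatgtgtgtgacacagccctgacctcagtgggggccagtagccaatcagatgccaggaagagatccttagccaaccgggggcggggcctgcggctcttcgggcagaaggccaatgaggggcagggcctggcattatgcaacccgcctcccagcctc
Tef, E-box, chr15:81802423-81802672, plus strand: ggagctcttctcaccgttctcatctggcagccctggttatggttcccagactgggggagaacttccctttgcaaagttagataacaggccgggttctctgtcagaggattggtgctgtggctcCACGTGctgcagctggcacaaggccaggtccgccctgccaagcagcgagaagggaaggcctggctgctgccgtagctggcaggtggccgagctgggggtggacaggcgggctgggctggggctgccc
Per3, D-box in 2 copies, chr4:151044666-151044915, minus strand: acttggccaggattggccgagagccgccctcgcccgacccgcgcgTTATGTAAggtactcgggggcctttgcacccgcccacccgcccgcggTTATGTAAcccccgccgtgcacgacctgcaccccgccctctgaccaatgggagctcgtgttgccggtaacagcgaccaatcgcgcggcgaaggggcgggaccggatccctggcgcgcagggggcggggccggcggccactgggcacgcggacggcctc
The E-box stands in 7.15% of the 32851 windows in the table and in windows of 4 of 12 genes that peak opposite to Arntl, Bhlhe41, Ciart, Per1 and Tef. Of the 5 genes that peak with Arntl, 1 held it, Cry1. The ROR half-site stands in 16.3% of windows and in those of 3 of the 5 genes that peak with Arntl, Arntl, Clock and Nfil3, and also in Per1 and Nr1d2. The D-box stands in 0.938% of windows. Of 31 lowered genes that have a window, 4 held the ROR half-site (Arntl, Tafa3, Tnfaip2 and 0610009B22Rik), 3 the E-box (Lims1, Meig1 and Timm8a1) and 0 the D-box. A gene can have several windows and was counted if any of them held the sequence. Shares of genes therefore run higher than shares of windows and are not on the same scale. A match here is a description of the sequence only.

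Several lowered genes are known for roles in the matrix or in adhesion. Spon2, which encodes a secreted matrix protein of the spondin family, was at 0.11 and 0.01 in trial 1 and 0.56 and 0.74 in trial 2 after PBS. After meth it was at -1.04 and -1.13 in trial 1 and at -1.96 and -1.77 in trial 2. It fell by 1.83 on the log2 scale (SE 0.22, adjusted p = 0.00187), or 3.55-fold, and its other probe fell by 1.67. Col5a3, a chain of the fibril collagen type V, was at 1.83 to 2.00 in PBS hearts and at 1.30, 1.06, 0.85 and 0.70 in meth hearts, with a log2 fold change of -0.94 (SE 0.16, adjusted p = 0.0161). The PBS hearts were close together and the meth hearts spread, those of trial 2 lowest. Its dim second probe, well above background on 2 PBS arrays, gave -0.19 (adjusted p = 0.83). Clmp, an adhesion molecule of tight junctions, fell by 0.60 (SE 0.10, adjusted p = 0.0147), from 1.84 to 1.96 after PBS to 1.13 to 1.42 after meth. Has2, which makes hyaluronan, went from between -2.93 and -2.65 to between -3.42 and -3.24, a log2 fold change of -0.51 (SE 0.084, adjusted p = 0.0124). The integrin subunit Itgb6 fell on its 2 dimmer probes, with -0.76 (adjusted p = 0.00508) and -0.75 (adjusted p = 0.0264), while its brightest probe gave -0.75 without passing (adjusted p = 0.123). The metalloproteinase Adam19 fell by 0.72 on one probe (adjusted p = 0.00922) and its brightest probe gave -0.76 (adjusted p = 0.0515). Adamts15, a protease that cuts matrix proteoglycans, fell by 0.36 (SE 0.072, adjusted p = 0.0348), and Lims1, an adaptor of integrin adhesions, by 0.34 (SE 0.064, adjusted p = 0.0293).

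Of 41 collagen and fibrosis genes tested, a list that holds none of the genes just named, 32 had a log2 fold change above 0, with a median of 0.30 against -0.02 over all genes, and 2 passed, both higher. One was Timp3, an inhibitor of metalloproteinases, at 0.58 (SE 0.090, adjusted p = 0.00924). The main collagens did not pass, with 0.35 (SE 0.19) for Col1a2 and 0.30 (SE 0.24) for Col3a1. The list's median was 0.09 in trial 1 and 0.47 in trial 2.

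Among genes of blood vessels, Vegfa, the growth factor that drives vessel growth, fell on 2 of its 4 probes. On the brightest probe the PBS hearts were at 4.26, 4.35, 4.31 and 4.23 and the meth hearts at 3.83, 3.72, 3.91 and 4.05, the last 2 being trial 2. The log2 fold change was -0.41 (SE 0.077, adjusted p = 0.0261), and on the second passing probe it was -0.50 (SE 0.062, adjusted p = 0.00197). The remaining 2 probes gave -0.36 and -0.47 without passing (adjusted p = 0.152 and 0.083), and on all 4 probes the meth hearts lay below the PBS hearts. Cldn5, the claudin of endothelial tight junctions, went from 2.18 to 2.41 after PBS to 1.73 to 2.02 after meth, a log2 fold change of -0.43 (SE 0.087, adjusted p = 0.0376). Foxs1, a forkhead factor, went from between -0.66 and -0.16 to between -1.16 and -0.83, and fell by 0.66 (SE 0.089, adjusted p = 0.00401). The endothelial list as a whole did not lean down. Of 32 genes tested, 12 were below 0, the median was 0.05, and Vegfa and Cldn5 alone passed. Bright endothelial genes such as Cav1 (0.058, SE 0.10) and Flt1 (-0.041, SE 0.13) lay within the spread between hearts.

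Tnfrsf12a, the receptor for the cytokine TWEAK, was at 3.41 and 3.39 in trial 1 and 3.87 and 3.88 in trial 2 after PBS, and at 2.95, 2.34, 3.39 and 2.79 after meth. One trial 2 meth heart at 3.39 reached the lowest PBS heart, so the groups met. Its log2 fold change was -0.77 (SE 0.15, adjusted p = 0.0367). Tnfaip2, a gene induced by tumour necrosis factor, was at 2.28 to 2.35 in PBS hearts and at 1.92, 1.91, 1.38 and 1.55 in meth hearts, with a log2 fold change of -0.63 (SE 0.13, adjusted p = 0.0367). Manf, a secreted protein of the endoplasmic reticulum (ER) made under folding stress, was at 1.99, 1.78, 2.23 and 2.45 after PBS and at 1.37 to 1.60 after meth, a log2 fold change of -0.60 (SE 0.12, adjusted p = 0.0408). It was the only lowered gene of 30 ER stress genes tested. Trib3, a pseudokinase of that response, rose by a log2 fold change of 0.33 (adjusted p = 0.0488), and Derl3, of ER-associated degradation, rose from well above background on 1 of 4 PBS arrays. Bright ER chaperones did not pass, with -0.23 (SE 0.22) for Hspa5 and -0.18 (SE 0.094) for Hsp90b1, and the list's median was -0.07.

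Of muscle genes, Tnni2, the troponin I of fast skeletal muscle, fell by 0.64 (SE 0.12, adjusted p = 0.0243). It was at 0.94 and 0.87 in trial 1 and 0.54 and 0.47 in trial 2 after PBS, and at 0.13, 0.47, -0.50 and 0.14 after meth. The highest meth heart and the lowest PBS heart differed little. Skeletal muscle markers summed to 339 to 370 in PBS hearts and 280 to 347 in meth hearts, Myh2 and Myog were well above background on no male array, and whether stray skeletal muscle plays a part was not tested. Prkag3, a subunit of the energy sensor AMPK found in muscle, fell by 0.67 (SE 0.14, adjusted p = 0.0452), with overlapping groups. Cited4, a transcriptional co-regulator, fell by 0.60 (SE 0.13, adjusted p = 0.0488), also with overlap. Lrtm1, a membrane protein with leucine-rich repeats, was bright, at 5.53 to 5.72 after PBS and 5.08 to 5.30 after meth, and fell by 0.42 (SE 0.084, adjusted p = 0.0356). Tesc, a calcium-binding protein, was bright as well and fell by 0.36 (SE 0.073). Efhd1, a mitochondrial calcium-binding protein, fell by 0.46 (SE 0.10) with overlap, just past the threshold.

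Other lowered genes act in signalling or chromatin. Dtx4, a ubiquitin ligase of the Notch pathway, was at 0.73 to 0.91 in PBS hearts and 0.28 to 0.36 in meth hearts. Its log2 fold change was -0.48 (SE 0.074, adjusted p = 0.00922), and a second probe gave -0.48 (adjusted p = 0.026) while the remaining probe gave -0.16 (adjusted p = 0.585). Dot1l, which methylates lysine 79 of histone H3, was at 0.86 to 1.08 and 0.51 to 0.65, and fell by 0.44 (SE 0.077, adjusted p = 0.0192), with -0.20 and -0.28 on its 2 dimmer probes (adjusted p = 0.714 and 0.623). Rasl11a, a small GTPase of the Ras family, fell by 0.98 (SE 0.12, adjusted p = 0.00163) from between -3.59 and -2.76 to between -4.26 and -3.96. Alkal2, a ligand of the receptor kinases ALK and LTK, fell by 1.11 (SE 0.22, adjusted p = 0.0358). Its PBS hearts were at -2.89 to -2.65 and its meth hearts spread from -4.55 to -3.31. Map2k3os, a transcript read opposite to the kinase gene Map2k3, fell by 0.45 (SE 0.069, adjusted p = 0.00922). Sash1, an adaptor protein, fell by 0.37 and Arap2, a regulator of small GTPases, by 0.37, its dimmer probe by 0.49. Man2a2, a mannosidase that trims sugar chains on proteins, fell by 0.48 (SE 0.10), and Tafa3, a small secreted protein, by 0.45 (SE 0.090). The remaining named genes were BC048679 (-1.25, SE 0.25), Fam222a (-1.03, SE 0.22), Meig1, known from sperm formation (-0.80, SE 0.15), and Noxred1 (-0.62, SE 0.13).

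The other lowered genes had log2 fold changes of -0.43 to -0.31. They were Rflnb (-0.43), 0610009B22Rik (-0.36), the sorting nexin Snx16 (-0.35), the mRNA export factor Thoc2 (-0.35), Zfp710 (-0.32), the mitochondrial import protein Timm8a1 (-0.32), the tyrosine phosphatase Ptpn4 (-0.31), Lzic (-0.31) and Lrrfip1 (-0.31). In all 9 the meth hearts lay below the PBS hearts. Erbb3, the neuregulin receptor, also passed, but it was well above background on 1 PBS array and on no meth array, so no fold is given. Another 29 of the 87 lowered probes could not be paired with a gene symbol here.

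No gene of the oxidative phosphorylation, fatty acid oxidation, calcium handling, heat shock or sarcomere lists passed the threshold. All 55 oxidative phosphorylation genes tested had a log2 fold change below 0, from -0.29 to -0.05 with a median of -0.16, where 55.1% of all genes tested were below 0 and the median was -0.02. None passed the adjusted threshold by limma, and 8 had an unadjusted p under 0.05 (14.5%, against 5.84% of all genes below 0 with such a p). Ndufb3, a subunit of complex I, went from 6.73 ± 0.061 (SD, n = 4) to 6.49 ± 0.061 (SD, n = 4), a log2 fold change of -0.24 (SE 0.095), and was 1 of 5 whose groups did not overlap (9.09%, against 5.76% of all genes). Cox7a1 of complex IV gave -0.22 (SE 0.13) and Atp5b of the ATP synthase -0.10 (SE 0.16). With quantile normalization 51 of the 55 were below 0 with a median of -0.08, while a median shift, normexp and the floor left all 55 below 0. Of 39 fatty acid oxidation genes 33 were below 0, with a median of -0.21 and 0 past the threshold. At an unadjusted p under 0.05, 11 were below 0 (28.2%, against 5.84% of all genes) and 1 was above 0. Their median was -0.08 in trial 1 and -0.32 in trial 2, where that of oxidative phosphorylation genes was -0.17 and -0.15. Acot1, an acyl-CoA thioesterase, had the lowest value, -0.74 (SE 0.22, adjusted p = 0.158), set mainly by trial 2 (-1.20, against -0.28 in trial 1). The nuclear receptor Esrra was at -0.24 (SE 0.078) with no overlap. Calcium handling genes (21 of 28 below 0, median -0.12), heat shock genes (26 of 30, median -0.14) and sarcomere genes (21 of 30, median -0.07) had 0 past the threshold. At an unadjusted p under 0.05, 7, 6 and 4 of them were below 0 (25.0%, 20.0% and 13.3%) and 0, 1 and 2 above 0. Quantile normalization brought these lists nearer to 0, with 31 of 39 fatty acid oxidation genes below 0 (median -0.15), 18 of 28 calcium handling genes (-0.06), 22 of 30 heat shock genes (-0.08) and 17 of 30 sarcomere genes (-0.02), where 51.4% of all genes were below 0. The sarcoplasmic calcium pump Atp2a2 was at -0.16 (SE 0.095) and the sodium-calcium exchanger Slc8a1 at -0.47 (SE 0.13, adjusted p = 0.118). The slow myosin Myh7 had a log2 fold change of 2.25 in trial 2 and 0.43 in trial 1, with 1.34 over both (SE 0.40, adjusted p = 0.172).

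Lists with most genes above 0 included the interferon-stimulated and cell cycle genes. Of 28 interferon-stimulated genes, 26 had a log2 fold change above 0, with a median of 0.14 and 0 past the threshold, 4 of them with an unadjusted p under 0.05. Ifit2 was highest in evidence at 0.46 (SE 0.11, adjusted p = 0.0788). A median shift left 23 of 28 above 0. Of 40 cell cycle genes, 36 were above 0 with a median of 0.40, and 22 had an unadjusted p under 0.05 (55.0%, against 7.34% of all genes above 0). The mitotic checkpoint gene Bub1b passed, and it was well above background on 2 of 4 PBS arrays. With normexp background correction the cell cycle median was 0.20. Markers of other cell types lay above 0 as well, each list with 0 past the threshold by limma, and their part in these results was not tested. These were 11 of 12 macrophage and monocyte markers, 8 of 9 MHC class II genes, 9 of 9 thymus markers and 10 of 11 atrial markers, where 44.9% of all genes were above 0. The atrial median was 0.47 in trial 1 and -0.14 in trial 2, where 8 of 11 atrial markers were below 0. Of the 9 MHC class II genes, 5 were below 0 in trial 1 and 3 in trial 2. For the 12 macrophage and monocyte markers it was 4 and 1, and for the 9 thymus markers 0 and 1. In units of the array's 75th percentile the macrophage sum was 17.1 to 23.2 in PBS hearts and 19.8 to 24.3 in meth hearts, and the thymus sum, with Rag1, Rag2 and Cd4 well above background on no male array, was 0.45 to 0.53 and 0.49 to 0.67. The MHC class II sum was 24.6 to 32.6 and 32.7 to 34.6, so that the sums just failed to overlap. Taken singly, 0 of the 9 MHC class II genes had all meth hearts above all PBS hearts. By limma, 0 had an unadjusted p under 0.05. The atrial sum was 912 to 1248 in PBS hearts and 1153 to 1436 in meth hearts.

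**Figure D3:**
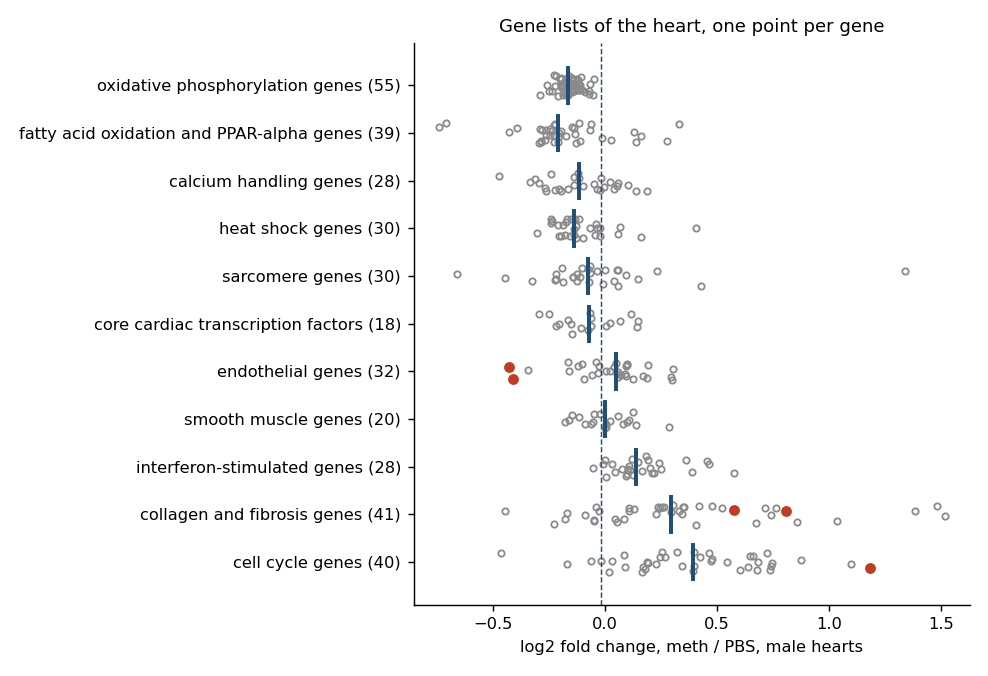
Log2 fold changes of meth over PBS in male hearts for 11 gene lists, with the number of genes tested in brackets. Each point is 1 gene, filled points passed the adjusted threshold, solid bars are list medians and the dashed line is the median of all genes tested (-0.02). All 55 oxidative phosphorylation genes lie below 0, and the cell cycle median is 0.40.

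Of the 82 genes that rose from a level well above background in all PBS hearts, 75 had no overlap (5.82% of all genes tested separated upward), and 5 of these were airway or epithelial markers or genes the study had named. The 15 largest of the other 70 mixed several kinds of gene. Wfdc2, a secreted protease-inhibitor-like protein of epithelia, rose most, from between -1.08 and -0.91 to 2.28, 3.92, 1.21 and 2.32, a log2 fold change of 3.47 (SE 0.49, adjusted p = 0.00528). Jchain, which joins antibody units in plasma cells, rose by a log2 fold change of 3.00 (SE 0.58, adjusted p = 0.0299), and in both genes trial 1 meth mouse 2 was highest. Fam183b (1.93) and 1110017D15Rik (2.03), both known from ciliated cells, and the zinc transporter Slc39a4 (1.61) were also highest in trial 1 meth mouse 2. That heart had the highest airway marker sum, 286.0, as well, and the part of airway RNA in these genes was not tested.

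A second kind were metabolic genes. The amino acid transporter Slc7a10 rose by a log2 fold change of 2.11 (SE 0.35, adjusted p = 0.0135) and the cytochrome Cyp2e1 by 1.92 (SE 0.34, adjusted p = 0.0192), both highest in trial 1 meth mouse 2. The fat-cell protease Cfd (adipsin) rose by 1.44 (SE 0.30, adjusted p = 0.0444), with overlap. White fat markers summed to 523 to 611 in PBS hearts and 531 to 764 in meth hearts, 10 of 11 tested were above 0, and the part of fat in these genes was not tested. Mthfd1l, a mitochondrial enzyme of one-carbon metabolism, was at -2.91 to -2.59 after PBS and at -1.47, -1.31, -0.89 and -1.08 after meth. It rose by 1.57 (SE 0.21, adjusted p = 0.00439), with narrow groups in both trials. Cys1, a protein of the primary cilium, went from 0.04 to 0.18 after PBS to 0.90 to 1.67 after meth, a log2 fold change of 1.09 (SE 0.22, adjusted p = 0.0337). Slc13a4, a sulphate transporter, rose by 1.26 (SE 0.27, adjusted p = 0.0481). Smaller rises included Mt2, a metallothionein (0.90), the alarmin Il33 (0.88), the tetraspanin Tspan4 (0.88), Rhobtb1 (0.83), the glycolytic regulator Pfkfb3 (0.77), the alcohol and retinaldehyde dehydrogenases Adh1 (0.77) and Aldh1a1 (0.75), Ier3 (0.71) and Osgin1 (0.63).

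**Figure D4:**
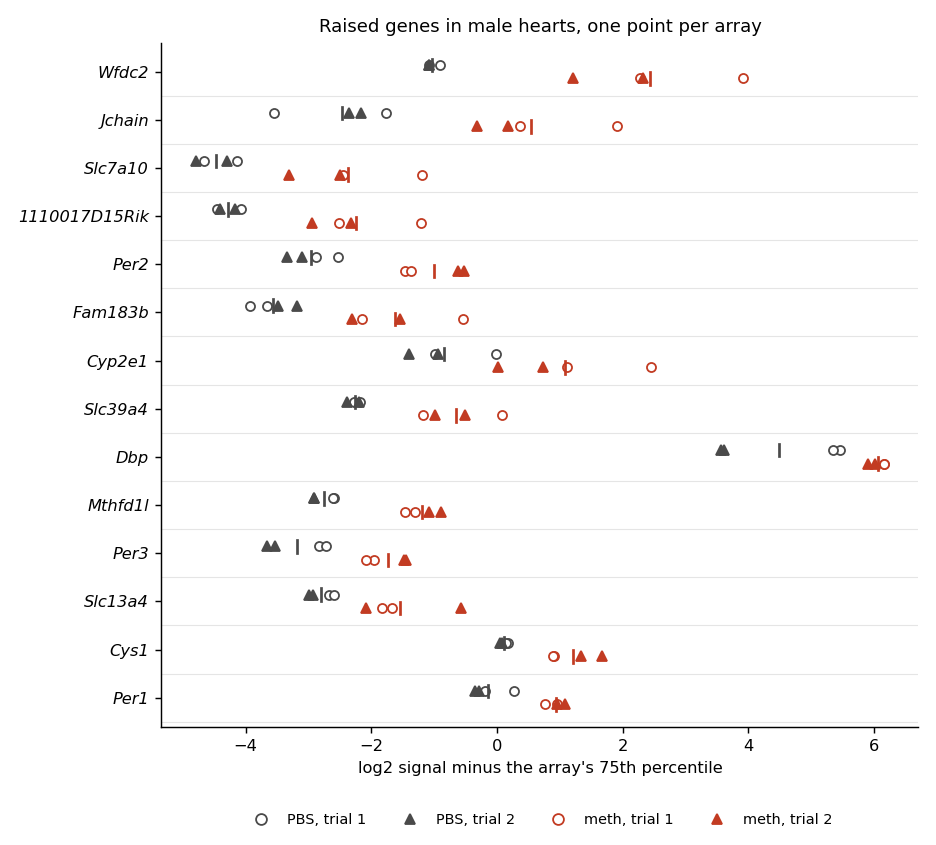
Named raised genes on the 8 male arrays. The x axis is the normalized log2 signal, each point is 1 heart, open circles are trial 1, filled triangles trial 2 and short bars group means. Meth hearts lie above PBS hearts for every gene, by 3.47 on average for Wfdc2, and trial 1 meth mouse 2 is the highest heart for Wfdc2, Jchain and Slc39a4.

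Within trials, 5 probes fell (0.0176%) and 80 rose (0.282%) in trial 1, and 39 fell (0.138%) and 62 rose (0.219%) in trial 2. Of the 39 lowered in trial 2, 33 were also below 0 in trial 1, where 55.5% of all probes were, and 18 had an unadjusted p under 0.05 there (2.98% of all probes did so on that side). Of the 5 lowered in trial 1, 4 were below 0 in trial 2. Arntl gave -1.46 in trial 1 and -3.33 in trial 2, Spon2 -1.14 and -2.51, Fam222a -0.57 and -1.49, and Rasl11a -0.74 and -1.22. Noxred1 (-0.87 and -0.36), Has2 (-0.62 and -0.41) and Map2k3os (-0.49 and -0.40) fell more in trial 1. In all, 68 of the 87 lowered probes and 17 of the 20 named genes had the larger fall in trial 2. The share of all probes that lay lower in trial 2 than in trial 1 is not given here. All genes tested leaned the same way, with a median of -0.0065 in trial 1 and -0.0309 in trial 2. Tested as a difference between the trials, 0 probes passed by limma (0.0%), and 1294 of 28358 had an unadjusted p under 0.05. That is less than the share of 0.05 that would have such a p if no probe differed. Dbp came close to passing, with a difference of 1.62 (trial 2 minus trial 1, SE 0.20, limma adjusted p = 0.0553). For Arntl (-1.87), Per3 (1.39) and Per2 (1.35) the adjusted p was 0.721, 0.68 and 0.68. Without trial 1 PBS mouse 2, 60 probes passed, without trial 2 meth mouse 2 it was 8, and without trial 2 PBS mouse 1 it was 3. With 2 hearts a group in each trial, the size of a response in 1 trial rests on few arrays.

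In female hearts, 157 probes fell (0.554%) and 58 rose (0.205%) after meth. Of the 87 probes lowered in males, 73 were below 0 in females (83.9%, where 49.8% of all probes were), and 21 passed (24.1%). Their median log2 fold change was -0.30 in females and -0.55 in males. Of the 20 named genes, 15 were below 0 and 7 passed. Spon2 (-1.91, SE 0.24, adjusted p = 0.00663), Arntl (-1.81, SE 0.36, adjusted p = 0.0444), Col5a3 (-0.84, SE 0.17, adjusted p = 0.0477), Foxs1 (-0.81, SE 0.096, adjusted p = 0.00414), Rasl11a (-0.79, SE 0.13, adjusted p = 0.0162), Man2a2 (-0.72, SE 0.11, adjusted p = 0.0143) and Dtx4 (-0.51, SE 0.079, adjusted p = 0.016) were the 7. In a direct test of the difference between the sexes 39 probes passed (0.138%), which became 0 with the replicate number as a block, 12 with a filter on all 15 arrays and 14 with normexp. Of the 39, 2 were among the 87 lowered in males. Noxred1 fell in males and gave 0.61 in females (SE 0.14, adjusted p = 0.0707), a difference of -1.23 (SE 0.19, adjusted p = 0.0233). The better-passing of the Vegfa probes gave -0.50 in males and 0.06 in females, a difference of -0.56 (SE 0.091, adjusted p = 0.0333), while for the brightest Vegfa probe the difference of -0.41 (SE 0.11) did not pass (adjusted p = 0.354). Tnfrsf12a, Tnni2, Manf and Has2 were above 0 in females, at 0.17, 0.11, 0.12 and 0.08, with adjusted p of 0.268, 0.22, 0.305 and 0.145 for the difference from males. Of the 15 raised genes, 13 were above 0 in females and 2 passed, Per2 (2.04) and Mthfd1l (1.35). Of all genes tested, 41.4% were below 0 in females and most of the rest above, and 0.205% of probes passed higher.

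The labels disagree on the trial of 3 female arrays, 2 meth and 1 PBS, which their titles put in trial 1 and their source names in trial 2. These 3 lay on a slide of their own, with 75th percentiles of 438 to 589 and 67.6% to 71.4% of probes well above background. The other female arrays were at 307 to 329 and 62.1% to 65.2%. With the slide in place of the trial in the fit, 51 probes passed the test of the difference between the sexes. For the trial, the titles were used. With the source names instead, an alternative chosen after seeing the data, 111 probes fell and 60 rose in females, and 17 of the 87 passed, against 21. Col5a3 then missed the threshold in females (limma adjusted p = 0.0703), and Arntl was just past it (adjusted p = 0.0499). In the test of the difference between the sexes 47 probes passed, 37 of them among the 39, and Noxred1, the better-passing Vegfa probe, Hspa1a, Hspa1b and Dnaja1 all passed. In males 311 probes passed and 29 of the 35 named genes did, the 6 lost being BC048679, Tnni2, Noxred1, Manf, Man2a2 and Tafa3.

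Some gene lists also lay differently in the sexes. Oxidative phosphorylation genes had a median of -0.16 in males and 0.09 in females, where 8 of 55 were below 0 and the median of all genes was 0.03, and no single gene passed the test of the difference by limma. Heat shock genes had a median of -0.14 in males and 0.19 in females. Of these, 3 passed the test of the difference: Dnaja1 (-0.16 in males, 0.78 in females), Hspa1a (0.06 and 1.49) and Hspa1b (0.16 and 1.48), the last 2 being near-identical copies whose probes may share signal. All 3 passed in females and none in males.

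**Figure D5:**
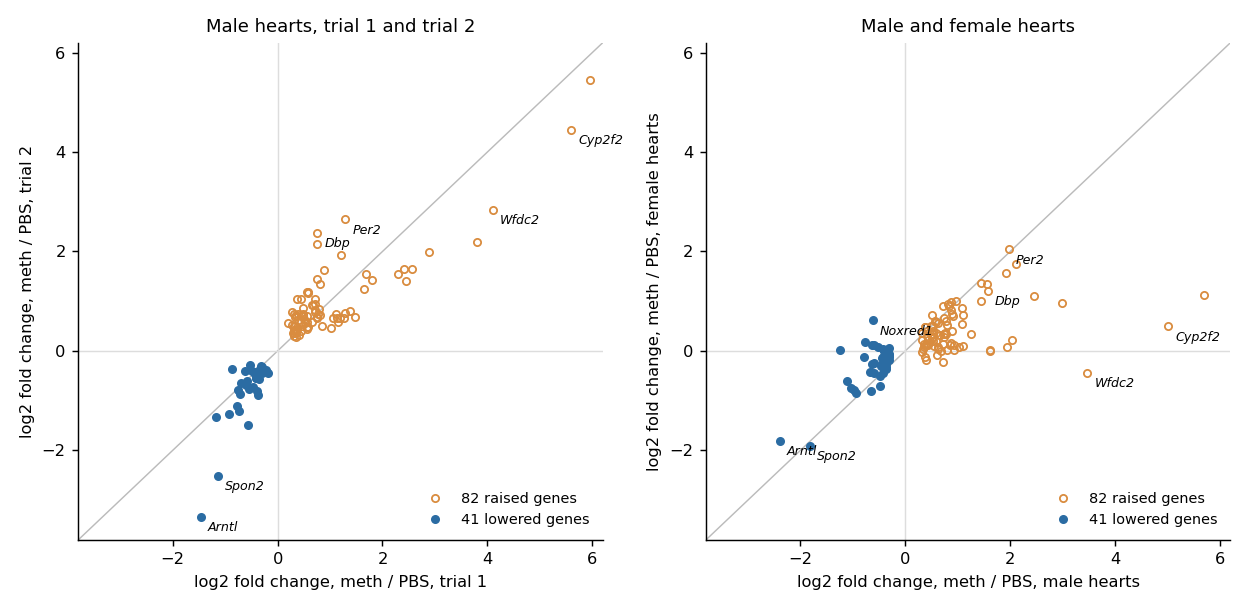
Log2 fold changes of meth over PBS for the 41 lowered and 82 raised genes that were well above background in all male PBS hearts. The left panel sets trial 1 against trial 2 in males and the right panel males against females, both axes are log2 fold changes and the grey diagonal marks equal values. Arntl and Spon2 lie below the diagonal on the left (trial 2 larger) and near it on the right, while Noxred1 lies above 0 in females.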

How the data were processed

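Heart RNA of 15 mice was measured, 1 mouse to an array. The authors labelled it with Cy3, scanned the arrays and extracted spots with Agilent Feature Extraction, version 9.1 in the submitters' processing notes and 10.5.1.1 in the file headers. The deposited intensity is the background-subtracted processed signal of each spot, not normalized between arrays. The deposited series table holds log2 values. They differ from the log2 signal by a single offset per array that brings all columns to 1 common 75th percentile, and they served as an alternative.

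Control spots and spots flagged as outliers were left out, replicate spots of one probe were averaged on the log2 scale, and the array's 75th percentile was subtracted. A probe counted as well above background on an array by the software's flag. Tests covered the 28358 of 41174 probes that passed this flag on 3 or more arrays. Accessions in the files were matched to RefSeq symbols for GRCm38, which named 26918 probes and 18350 genes, and each gene was represented by its brightest probe on average. Some loci are not reported here.

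All 15 arrays entered a single limma 3.58.1 fit (R 4.3.3, lmFit and eBayes) with the 4 groups of sex and treatment and the trial. Within-trial values came from a fit with a group per trial. Tests are two-sided, with Benjamini-Hochberg adjustment across every tested probe and a threshold of 0.05. On simulated data of 28358 probes, in which 200 were moved by 2 log2 units, over 10 draws, the male comparison called 94.7% of them, and 4.97% of its calls were unchanged probes. The simulated noise was independent between arrays, and the 87 lowered probes had a median log2 fold change of only -0.55. These shares therefore do not carry over to most of the changes reported here.

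Named genes were the 20 most negative and 15 most positive past the threshold, well above background on all 4 male PBS arrays, with no overlap between groups. For the raised ones, genes the study named and airway or epithelial list genes were only counted. Other lowered genes and members of the lists were named as well, and Itgb6, Adam19 and Nfil3, whose brightest probe did not pass, were named after their values were seen. The members and the 46 gene lists were chosen with earlier results of these data known, so no list is independent support for its direction. Alternatives covered the scaling, background correction, filter, model, block, each left-out male array, the methods' t-test and, added after seeing the data, another trial for 3 female arrays. P-values measure the spread between these samples. The number of arrays and the signal over background limit the precision.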

Additional observations from a re-analysis of the deposited data

Results flagged for a closer look

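In 72 groups of 4 arrays checked for a single value far from the other 3, 2 stood out, and chance alone flags about 1 group in 20. Dot1l in meth hearts had 3 arrays between 0.51 and 0.52, and trial 2 meth mouse 2 at 0.65. The gap was 0.925 of the group's range, above Dixon's 95% critical value. Wfdc2 in PBS hearts had 3 arrays at -1.08 and trial 1 PBS mouse 2 at -0.91, a gap of 0.967 of the range. Both values lie on the same side of the other group as their neighbours, and both gaps are small beside the difference between meth and PBS.

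The response to meth differed between males and females, in the test of the difference itself, for Noxred1 by -1.23 on the log2 scale and for 1 of the 4 Vegfa probes by -0.56. Among heat shock genes it differed for Hspa1a by -1.43, for Hspa1b by -1.32 and for Dnaja1 by -0.94 (male minus female, limma with adjusted p of 0.00397, 0.0081 and 0.00569). The heat shock genes were raised in females and did not pass in males.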

How the results depend on the processing

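The direction of all 35 named genes was kept in each of 26 alternatives. The number past the threshold was not. In the male comparison, against 314 probes in all and 199 among those well above background on all PBS arrays, it was 53 and 40 with normexp background correction, 177 and 86 with no filter, 167 and 108 with the 8 male arrays alone, 525 and 402 with the slide in place of the trial, and 587 and 432 with the slide as a random block. With no trial term the second count was 127. Within trial 1 the counts were 85 and 29 and within trial 2 they were 101 and 73. The methods' t-test gave 4313 probes at an unadjusted p under 0.05 when paired and 3769 when unpaired, and after Benjamini-Hochberg adjustment 0 when paired and 18 and 7 when unpaired. Of the 35 named genes, 0 passed by that t-test after adjustment, paired or unpaired. With the 8 male arrays alone 16 of the 35 passed, with the replicate number as a block 13, and with the slide as a random block all 35. Leaving out each male array in turn gave 119 to 235 probes in all, 20 to 61 of them lower, and 65 to 147 among those above background.

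The difference between the sexes, 39 probes, came to 14 with normexp, 12 with a filter on all 15 arrays, 73 with the slide as a random block and 28 to 46 without 1 male array. The difference between the trials, 0 probes, came to 2 with the floor, 1 with the filter on all 15 arrays, 2 with a mean-variance trend, 1 with the trial of 3 female arrays taken from their source names (an alternative chosen after seeing the data) and 0 to 60 without 1 array. In these the cause was not tested, beyond the smaller number of arrays where one was left out.

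Replicate numbers pair the arrays in no sense that the labels state. In trial 1 males and in females, however, meth and PBS arrays of the same number lay on the same slide. The trial 2 males all lay together on another. Same-numbered meth and PBS arrays had correlated deviations from their group means (0.33, 0.27, 0.26 and 0.40 over 23808 probes), which was gone within trials (-0.085 in trial 1 and 0.0099 in trial 2). With the replicate number as a block, 157 probes passed in males, 47 lower and 110 higher, and 87 among those well above background on all PBS arrays, and the difference between the sexes fell to 0 probes. Signal over background sets a limit for the 82 raised probes that no male PBS array showed well above background.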
